A study of Mus musculus with 34 samples.

Results

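The DNA replication genes are 46 genes that encode the machinery copying DNA in S phase and the enzymes that supply its nucleotides. They were picked by name for their function, and the rule that picks them uses no measured value. Earlier results of these data were known when they and the lists set beside them were chosen. All 46 had a row among the 37583 genes measured in mouse liver, and 44 passed the filter on low mRNA values. Animals called KO here were 45 days old, of a mixed F1 background (C57Bl6/CBA), and carried the genotype Setd8lox/lox-Alb-Cre. Wild type animals of the same age and background are called WT. Setd8, also named Kmt5a, Set8 or PR-Set7, encodes the enzyme that adds the first methyl group to lysine 20 of histone H4. The floxed exon of Setd8 is removed by Cre under the albumin promoter, which is active in hepatocytes, so immune, endothelial and stellate cells of the liver keep the gene. Messenger RNA was sequenced in 3 KO and 3 WT libraries. Newly made RNA was sequenced by a pair of methods with 1 KO and 1 WT library each. In the first method, animals received 25 mg per kg of ethynyl uridine (EU) 30 min before death. In the other, isolated nuclei were run on with bromouridine triphosphate (Br) for 3 min. The 24 chromatin samples of the series were not analysed here.

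Before S phase, the origin recognition complex, Cdc6 and Cdt1 load the ring of Mcm2 to Mcm7 onto DNA, a step called licensing that geminin blocks once S phase has begun. The kinase Cdc7 with Dbf4, together with cyclin-dependent kinases, then turns the ring into a working helicase by adding Cdc45 and the GINS complex. Polymerase alpha with primase starts each strand, polymerases epsilon and delta extend it on the clamp Pcna, and Fen1 and Lig1 join the lagging strand fragments. Most hepatocytes of a grown liver are quiescent and keep these genes low, and E2F factors bound at their promoters are known to raise them when cells enter the cycle. Setd8 is tied to replication because its protein is destroyed in S phase through PCNA.

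Promoters of the members are shown first because E2F elements are the sequence feature best known from this family. Windows from 250 bases before to 50 bases after the start of transcription (RefSeq, GRCm38.p6) were found for 38 of the 46 members. Any of the octamers TTTGGCGC, TTTCCCGC, TTTCGCGC or TTTGCCGC, read on either strand and with overlapping matches counted separately, occurred in 14 of these 38 members (36.8%). The same letters occurred in 704 of all 27025 genes with a window (2.60%), and in 3.29% of the protein-coding ones. The 14 members were Mcm3, Mcm5, Mcm6, Mcm7, Orc1, Orc3, Cdc6, Cdt1, Gins3, Pola1, Pold1, Pole2, Rfc3 and Lig1. Other letters were searched in the same windows. The CHR letters TTTGAA or TTCGAA, an element of genes expressed late in the cycle, occurred in 23.7% of the members and 21.7% of all genes. CCAAT occurred in 60.5% of the members and 41.1% of all genes, and GGGCGG, the GC box, in 76.3% of the members and 38.2% of all genes (49.2% of the protein-coding ones). A match describes the letters in a window and shows no binding. Below are 3 helicase subunits with more than 1 match, followed by Rrm2, the member with the smallest p in mRNA, and Tk1, a member with lower values in KO livers, neither of which has a match in its window. Capitals mark the E2F octamers, and a longer run of capitals holds a pair of overlapping matches on opposite strands.
Mcm3 (chr1:20820263-20820562, minus strand): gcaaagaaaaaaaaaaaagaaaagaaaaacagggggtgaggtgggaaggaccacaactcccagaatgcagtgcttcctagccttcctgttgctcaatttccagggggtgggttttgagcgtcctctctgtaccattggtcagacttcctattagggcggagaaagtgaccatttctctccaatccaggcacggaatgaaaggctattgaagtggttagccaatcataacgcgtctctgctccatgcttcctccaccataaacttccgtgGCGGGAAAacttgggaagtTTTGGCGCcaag
Mcm5 (chr8:75109259-75109558, plus strand): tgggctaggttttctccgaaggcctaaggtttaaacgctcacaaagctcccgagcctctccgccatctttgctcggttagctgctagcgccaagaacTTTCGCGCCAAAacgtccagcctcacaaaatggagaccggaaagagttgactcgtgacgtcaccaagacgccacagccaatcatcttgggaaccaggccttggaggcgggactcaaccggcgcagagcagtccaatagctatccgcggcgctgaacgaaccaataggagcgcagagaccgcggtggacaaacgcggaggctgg
Mcm6 (chr1:128359656-128359955, minus strand): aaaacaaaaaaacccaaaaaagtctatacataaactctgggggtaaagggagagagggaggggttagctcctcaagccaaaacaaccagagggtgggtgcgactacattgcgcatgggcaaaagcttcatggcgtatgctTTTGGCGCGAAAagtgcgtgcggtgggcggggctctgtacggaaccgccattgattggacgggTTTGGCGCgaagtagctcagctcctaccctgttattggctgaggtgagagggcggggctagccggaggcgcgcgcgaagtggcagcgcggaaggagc
Rrm2 (chr12:24708004-24708303, plus strand): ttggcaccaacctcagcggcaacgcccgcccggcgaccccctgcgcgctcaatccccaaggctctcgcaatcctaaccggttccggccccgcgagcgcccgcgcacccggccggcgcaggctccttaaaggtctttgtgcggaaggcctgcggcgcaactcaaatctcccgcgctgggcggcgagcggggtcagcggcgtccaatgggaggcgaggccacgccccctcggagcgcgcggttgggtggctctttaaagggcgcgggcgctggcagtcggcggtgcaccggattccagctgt
Tk1 (chr11:117825965-117826264, minus strand): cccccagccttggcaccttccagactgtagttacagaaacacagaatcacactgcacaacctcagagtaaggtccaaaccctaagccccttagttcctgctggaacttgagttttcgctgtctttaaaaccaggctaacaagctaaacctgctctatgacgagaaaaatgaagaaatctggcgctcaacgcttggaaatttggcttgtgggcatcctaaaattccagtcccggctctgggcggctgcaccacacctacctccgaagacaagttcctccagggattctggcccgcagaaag

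In Mcm3 both matches lie after the start of transcription, and in Mcm5 and Mcm6 they lie before it. Among tested members with an E2F match, 9 of 12 had a higher mRNA value in KO livers, with a median log2 difference of 0.42. Among tested members with a window and no match, 13 of 24 were higher, with a median of 0.023. The 8 members without a window are in neither group. They were Mcm4, Gmnn, Gins1, Gins2, Gins4, Prim2, Pole and Rfc2, and all but Gmnn had a higher mRNA value in KO livers. These are descriptions with no test, and Rrm2 and Tk1, both without a match, lay in opposite directions.

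Setd8 mRNA could not serve to check the labels. Its scaled values were 1199, 1040 and 1075 in the libraries labelled KO, against 593, 615 and 1076 in the WT libraries. A scaled value is the authors' read count per gene divided by a library size factor and rounded. The log2 difference was 0.59 (limma SE 0.25, adjusted p = 0.244), so Setd8 mRNA was not lower in the libraries labelled KO, and the files do not show whether the floxed exon was missing. Without WT replicate 3 the difference was 0.87 (limma adjusted p = 0.0206; alternatives gave adjusted p between 0.000312 and 0.512). KO and WT below are the labels' names.

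Scaled values summed to between 18069344 and 20102731 per KO library and to between 20066093 and 25820906 per WT library. WT replicate 3 stood apart. It detected 20077 genes, and the other 5 libraries detected 24497 to 26247; main results are given with and without it. Nascent libraries held 5583983 (KO) and 10833287 (WT) reads in EU and 2317840 (KO) and 3156055 (WT) in Br. The labels do not say whether each mRNA replicate is a separate animal, so the spread behind each p-value may be partly technical. Hepatocyte markers summed to between 1879045 and 2092161 in KO libraries and to between 1878510 and 2889003 in WT libraries, with all 8 genes detected in every library.

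No member passed the test between KO and WT livers in mRNA. Of the 44 tested members, 0 were higher and 0 were lower at a limma adjusted p under 0.05, against 1.35% of all 16813 tested genes called higher and 1.36% called lower. At an unadjusted p under 0.05 there were 9 members (20.5%), close to the 20.0% of all genes, so this share is not a result about the members. edgeR and DESeq2, run on reads re-estimated from the scaled values, also called 0 members in either direction, beside 1.52% higher and 1.29% lower of all genes by edgeR and 5.23% higher and 5.42% lower by DESeq2. Of the tested members 29 had a higher and 15 a lower fitted value in KO, with a median log2 difference of 0.17 beside 0.0023 over all genes tested. Summed over all 46 members, scaled values were 10909, 10333 and 9667 in the KO libraries, against 10512, 11010 and 12718 in the WT libraries. The sums overlapped and were mostly lower in KO. Mcm10 held 2099 to 2321 of the KO sums and 2571 to 4997 of the WT sums. Without Mcm10 the sums still overlapped and were no longer mostly lower in KO, so that direction rests on Mcm10. The median was 0.072 without KO replicate 1 and 0.15 without WT replicate 3, and 0 members were called by limma without either library. The 3 KO values lay wholly above the 3 WT values in 6 members, Mcm4, Dbf4, Cdc45, Pole, Rfc5 and Rrm2, against 13.2% of all genes. They lay wholly below in 2 members, Mcm10 and Tk1, against 12.8% of all genes. In bulk tissue, fewer cells of a type and less RNA per cell cannot be told apart.

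**Figure D1:**
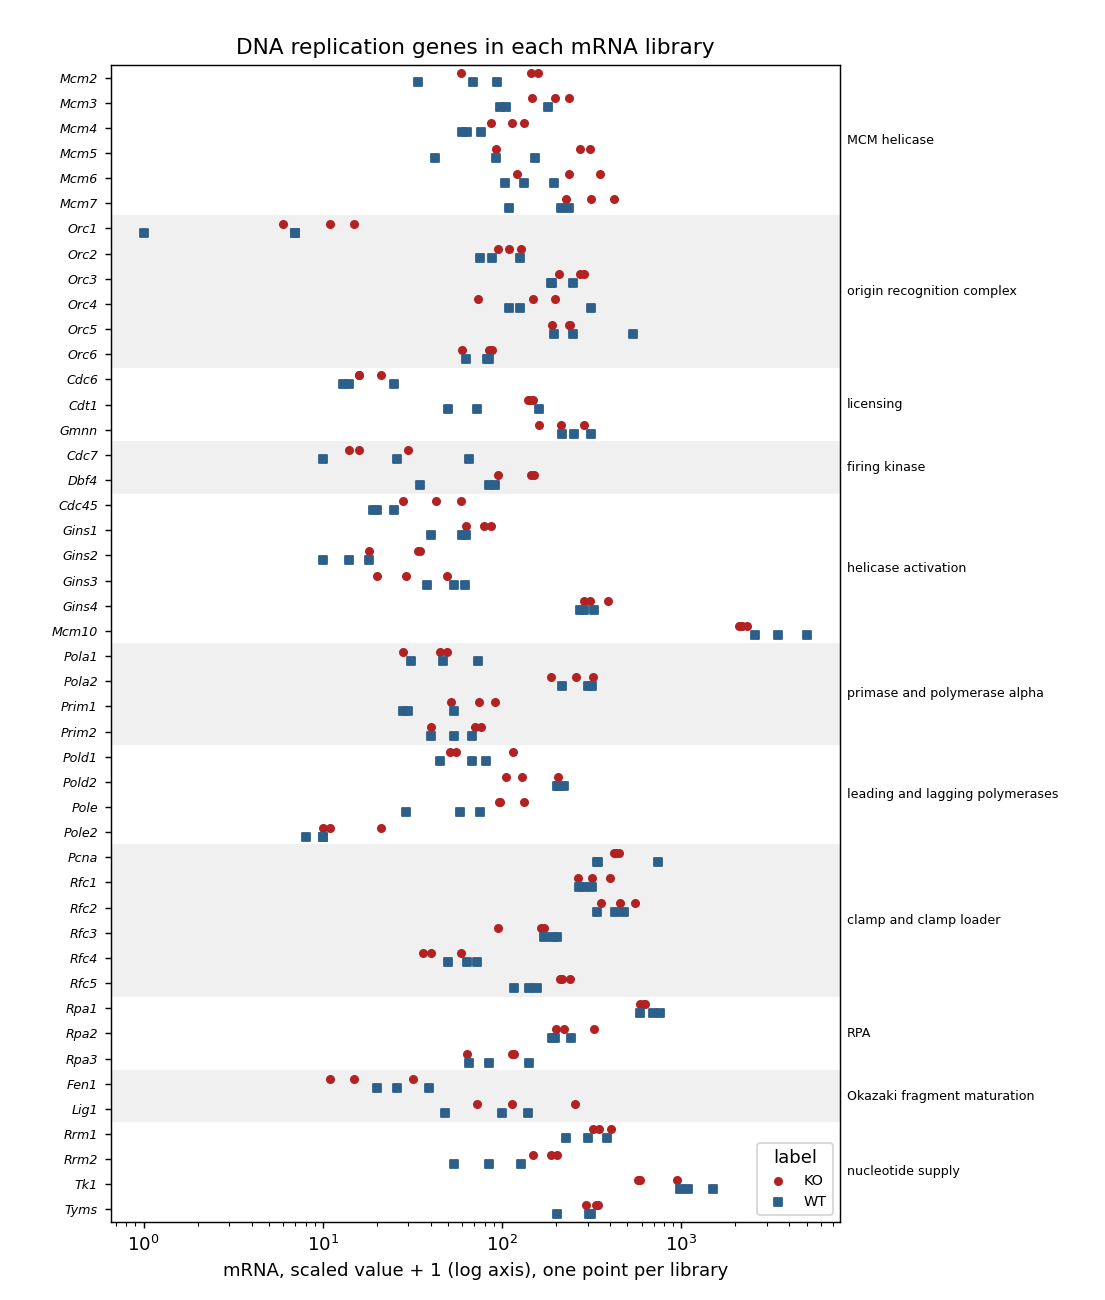
Scaled mRNA value plus 1 on a log axis for each of the 46 DNA replication genes, grouped by role, with 1 point per library (3 KO above, 3 WT below in each row). All but 8 of the 44 tested rows show overlapping groups, and Mcm10 lies far to the right of the other helicase activation genes.

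The helicase subunits Mcm2 to Mcm7, which form the ring that unwinds DNA, shared a direction, although none passed the test. All 6 had higher fitted values in KO, with log2 differences between 0.63 and 1.23 and a median of 0.77. Their scaled values summed to 1601, 1267 and 725 in the KO libraries, against 927, 633 and 476 in the WT libraries. KO replicates 1 and 2 exceeded every WT library in each of the 6 genes, while KO replicate 3 was the lowest KO library in all 6 and exceeded every WT library only for Mcm4. Mcm4 had 131, 112 and 86 in KO livers, against 75, 63 and 59 in WT livers. Its groups did not overlap, at a log2 difference of 0.72 (limma SE 0.28, adjusted p = 0.207). Mcm5 had 307, 271 and 91 in KO livers, against 152, 91 and 41 in WT livers. Its difference of 1.23 (limma SE 0.58, adjusted p = 0.288) had the greatest size among the tested members, with an interval of -0.11 to 2.58 that spans 0. Mcm2 had 157, 144 and 58 in KO livers, against 93, 68 and 33 in WT livers, a difference of 0.87 (limma SE 0.50, adjusted p = 0.386). Its groups overlapped through KO replicate 3. Mcm7 had 420, 311 and 225 in KO livers, against 234, 212 and 108 in WT livers, a difference of 0.81 (limma SE 0.36, adjusted p = 0.251). Mcm7 shares exon bases with 4 genes, most of all with Ap4m1 on the opposite strand (7.25%). The sources used here do not say whether counting used strand. Mcm3 and Mcm6 both differed by 0.63.

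The other loading factors lay on both sides of 0. Of the 5 tested origin recognition genes, 3 were higher and 2 lower, between -0.42 and 0.29. Orc3, with the smallest p of the complex, had 206, 271 and 285 in KO livers, against 186, 189 and 249 in WT livers, a log2 difference of 0.29 (limma SE 0.23, adjusted p = 0.547). Its groups overlapped. Orc4 and Orc5, at -0.33 and -0.42, had their highest value in WT replicate 3, with 311 and 533. Without that library they were at 0.14 and 0.0049, and Orc4 was at 0.080 without KO replicate 1. Orc2 differed by 0.22 and shares 29.8% of its exon bases with Nif3l1 on the opposite strand. Orc6, at 0.010, was below 0 without KO replicate 1, KO replicate 2 or WT replicate 2 (-0.12 to -0.059). Orc1, the large subunit of the complex, was too low to test, with 10, 14 and 5 in KO livers against 6, 6 and 0 in WT livers. It shares 10.8% of its exon bases with Gm12743 on the opposite strand. Cdt1, which brings the helicase to the origin, had 148, 142 and 138 in KO livers, against 159, 71 and 49 in WT livers. The KO libraries were even and the WT libraries spread, at a difference of 0.79 (limma SE 0.41, adjusted p = 0.338). Cdc6, the ATPase that works with Cdt1, lay between 12 and 24 in all 6 libraries. Its difference of 0.080 was below 0 without KO replicate 1, WT replicate 1 or WT replicate 3 (-0.095 to -0.041). Gmnn, which encodes geminin, differed by -0.27.

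Genes that turn the loaded ring into a moving helicase split in direction. Dbf4, the activating subunit of the kinase, had 143, 149 and 94 in KO livers, against 34, 90 and 83 in WT livers, a log2 difference of 0.98 (limma SE 0.42, adjusted p = 0.239). Its partner Cdc7 was low in every library and differed by -0.44, with an interval of -2.08 to 1.19, and by 0.23 without WT replicate 1. Cdc45, which joins the helicase at firing, had 58, 42 and 27 in KO livers, against 24, 19 and 18 in WT livers. This is a difference of 0.97 (limma SE 0.41, adjusted p = 0.242) without overlap. Gins2 had 34, 33 and 17 in KO livers, against 17, 13 and 9 in WT livers, a difference of 1.03 (limma SE 0.50, adjusted p = 0.297). Gins2 shares 67.3% of its exon bases with Gse1 on the opposite strand, so its reads cannot be told from those of Gse1 if strand was not used. The other GINS genes differed by 0.51 (Gins1), -0.72 (Gins3) and 0.15 (Gins4).

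Mcm10, a factor that binds the helicase and polymerase alpha at firing, stood out by its level. It had 2188, 2321 and 2099 in KO livers, against 2571, 3472 and 4997 in WT livers. KO was below WT without overlap, at a log2 difference of -0.69 (limma SE 0.25, adjusted p = 0.184). The 3 KO libraries lay close together, while WT replicate 3 had the highest value. Per kilobase of exon, Mcm10 had 286 ± 14.5 in KO livers and 478 ± 159 in WT livers (SD, n = 3 each), ranking 1 of 46 in both groups. In KO livers Gins4 came next, at 243 ± 41.1 (SD, n = 3), which overlaps Mcm10 within the spread. No other gene in the annotation used shares its exon bases. The helicase ring it works with was much lower per kilobase, for example Mcm7 at 72.0 ± 22.1 in KO livers and 41.7 ± 15.2 in WT livers. Tk1, Gins4, Pcna and Gmnn followed Mcm10 in WT livers, and Tk1 at 228 ± 51.9 and Gins4 at 217 ± 19.6 per kilobase in WT did not differ beyond their spread. Orc1 was the lowest in both groups.

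**Figure D2:**
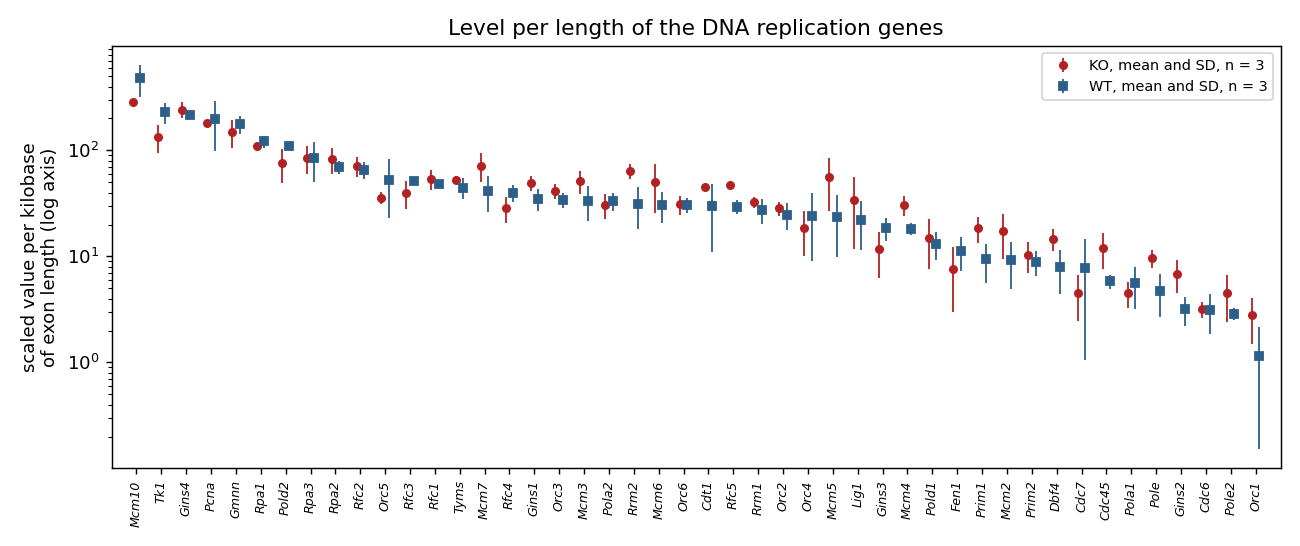
Scaled mRNA value per kilobase of exon for the 46 members, mean and SD of 3 KO (left) and 3 WT libraries on a log axis, ordered by the WT mean. Mcm10 is first at 286 in KO and 478 in WT, and Orc1 is last.

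Priming and extension genes again lay on both sides of 0. Prim1, the catalytic primase subunit, had 90, 73 and 51 in KO livers, against 27, 29 and 53 in WT livers, where WT replicate 3 alone reached the KO range. Its log2 difference was 0.98 (limma SE 0.39, adjusted p = 0.213). Its partners Prim2, Pola1 and Pola2 differed by 0.19, -0.26 and -0.13. Each changed sign without 1 library, Prim2 to -0.015 without WT replicate 3, Pola1 to 0.050 without WT replicate 2 and Pola2 to 0.083 without KO replicate 3. Pole, the catalytic subunit of the leading strand polymerase, had 95, 131 and 96 in KO livers, against 57, 74 and 28 in WT livers. Its groups did not overlap, at a difference of 1.09 (limma SE 0.40, adjusted p = 0.177). Pole2, its second subunit, was too low to test, with 10, 20 and 9 in KO livers against 7, 9 and 9 in WT livers. The lagging strand polymerase genes Pold1 and Pold2 differed by 0.13 and -0.57, and Pold1 was below 0 without KO replicate 1 (-0.25) or WT replicate 3 (-0.11).

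The clamp gene and the loader genes lay on both sides of 0. Pcna, the sliding clamp, had 418, 448 and 431 in KO livers, against 336, 340 and 743 in WT livers. Its difference of -0.024 rests on WT replicate 3, without which it was 0.35, still short of the threshold. Rfc5, a small subunit of the loader, had 216, 239 and 208 in KO livers, against 156, 115 and 140 in WT livers. The groups did not overlap, at a log2 difference of 0.69 (limma SE 0.22, adjusted p = 0.136). Rfc5 shares 10.7% of its exon bases with Wsb2 on the opposite strand. Of the other loader genes Rfc1 and Rfc2 differed by 0.16 and 0.13, and Rfc3 and Rfc4 by -0.43 and -0.48. Rfc2 shares 15.1% of its exon bases with Lat2, and Rfc4 12.65% with Eif4a2, both on the opposite strand. Rfc1 was at -0.0014 without KO replicate 3, and Rfc2 at -0.022 without KO replicate 1 and -0.012 without WT replicate 3.

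Genes of the single-strand binding protein RPA differed little, by -0.15 (Rpa1), 0.036 (Rpa3) and 0.22 (Rpa2). Rpa3 was below 0 without KO replicate 2 or 3 or WT replicate 1 or 2 (-0.22 to -0.022). Rpa2 had 323, 220 and 198 in KO livers, against 240, 196 and 189 in WT livers (limma SE 0.25, adjusted p = 0.689). Fen1, the flap nuclease, had 31, 10 and 14 in KO livers, against 38, 19 and 25 in WT livers, a log2 difference of -0.65 (limma SE 0.54, adjusted p = 0.562). Fen1 shares 78.8% of its exon bases with an antisense gene. Lig1, the ligase of the lagging strand, had 254, 113 and 71 in KO livers, against 139, 99 and 47 in WT livers, and its groups overlapped.

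The nucleotide supply genes held the smallest p of all members, in Rrm2, and a member with the opposite sign, Tk1. Rrm2, the small subunit of ribonucleotide reductase which varies with the cell cycle, had 202, 187 and 147 in KO livers, against 126, 53 and 83 in WT livers. KO was above WT without overlap, at 2.14-fold (log2 1.10, limma SE 0.34, adjusted p = 0.132). Tk1, the cytosolic thymidine kinase of the salvage route, had 572, 589 and 941 in KO livers, against 1087, 1493 and 982 in WT livers. KO was below WT without overlap, at 0.584-fold (log2 -0.78, limma SE 0.26, adjusted p = 0.149). Rrm1, the large reductase subunit, and Tyms, which makes thymidylate, differed by 0.26 and 0.27.

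**Figure D3:**
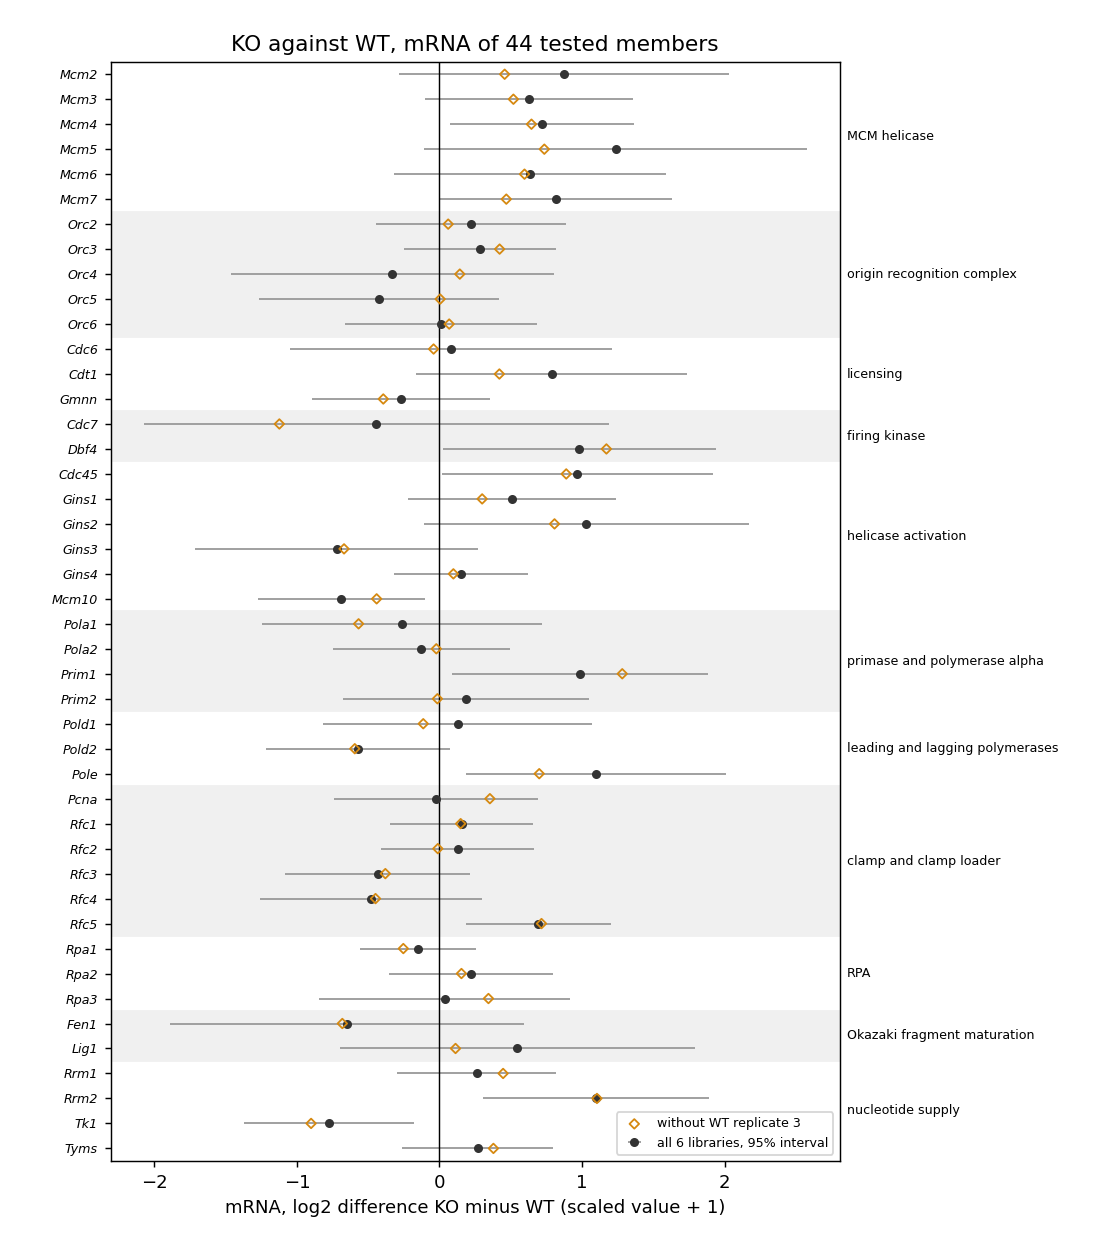
Fitted log2 difference in mRNA, KO minus WT, for the 44 tested members by role; black points use all 6 libraries with 95% intervals, and open diamonds leave out WT replicate 3. The 6 MCM helicase points lie right of 0 in both fits, while Mcm10 and Tk1 lie left of it.

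Some libraries were low or high across many members. KO replicate 3 was the lowest KO library in 26 of 44 tested members, and KO replicate 1 the highest in 24. In WT livers, replicate 3 was the lowest in 22 and replicate 1 the highest in 23. Genes of mitosis, a list of 34, summed to 6940, 6934 and 2895 in the KO libraries, against 1857, 1629 and 1133 in the WT libraries, so KO replicate 3 was the lowest KO library there too. Macrophage markers summed to between 11605 and 26227 in KO and between 8177 and 9734 in WT, with all 13 genes higher and 2 called, Csf1r and Cd14, and KO replicate 3 again lowest. Stellate cell markers summed to between 5130 and 7209 in KO and between 2753 and 4214 in WT, with 8 of 9 higher and 1 called. Cholangiocyte markers summed to between 1044 and 1935 in KO and between 562 and 706 in WT, with 4 of 6 tested genes higher and 1 called. Their log2 differences ran from -0.88 to 1.85. Endothelial markers summed to between 5671 and 6504 in KO and between 5657 and 5944 in WT, with 5 of 7 higher and 0 called. Lymphocyte markers summed to between 63 and 209 in KO and between 75 and 131 in WT, with 8 of 8 higher and 0 called. Without WT replicate 3, 5 lymphocyte markers were higher. Medians were 1.42 (macrophage), 0.85 (stellate cell), 0.078 (cholangiocyte), 0.27 (endothelial) and 0.28 (lymphocyte). Of all genes, limma called 1.35% higher, edgeR 1.52% and DESeq2 5.23%, and limma 4.74% without WT replicate 3. In that order, macrophage markers had 2, 4, 10 and 7 called higher, and stellate cell markers 1, 1, 2 and 2. Endothelial markers had 0, 0, 1 and 1, cholangiocyte markers 1 in each, and lymphocyte markers 0 in each. Of the erythroid markers, 0 of 3 tested genes were higher, with a median log2 difference of -0.35 and 0 called by limma, edgeR or DESeq2. Of these 3 genes 0 had an unadjusted p under 0.05. Without WT replicate 3 their median was -1.07 and 1 was called lower by limma, Klf1 (adjusted p = 0.0209; alternatives gave 0.000138 to 0.697). The part of these cell types in the members' values was not tested.

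Other genes of replication and the cell cycle are set beside the members. Of 44 further replication genes, 42 were tested, 1 rose and 1 fell by limma, beside 1.35% and 1.36% of all genes, with a median log2 difference of 0.067. Their median was 0.19 without WT replicate 3. edgeR also called 1 higher and 1 lower, and DESeq2 4 higher and 1 lower, beside 5.23% and 5.42% of all genes. With so few genes, these counts are not a result about the list. Esco2, which acetylates cohesin during S phase, had 158, 203 and 53 in KO livers, against 11, 12 and 15 in WT livers. It rose 8.89-fold (log2 3.15, limma SE 0.52, adjusted p = 0.0249). Pold3, an accessory subunit of polymerase delta, had 325, 272 and 428 in KO livers, against 828, 705 and 641 in WT livers, a fall to 0.467-fold (log2 -1.10, limma SE 0.22, adjusted p = 0.0466). Top2a, the topoisomerase that untangles finished strands, had 430, 392 and 82 in KO livers, against 67, 26 and 41 in WT livers, and did not pass (log2 2.50, limma adjusted p = 0.0806). The call of Esco2 was lost without KO replicate 1 (limma adjusted p = 0.0959), KO replicate 2 (0.147), WT replicate 1 (0.0603) or WT replicate 2 (0.103). The call of Pold3 was lost without the same libraries, at limma adjusted p of 0.118, 0.222, 0.112 and 0.155 in that order.

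Of 33 regulators of S phase entry, 30 were tested, with a median of 0.019, or 0.13 without WT replicate 3. By limma 3 rose and 0 fell, beside 1.35% and 1.36% of all genes. The 5 (16.7%) at an unadjusted limma p under 0.05 are not a result about the list, beside 20.0% of all genes. edgeR also called 3 higher and 0 lower, beside 1.52% and 1.29% of all genes. DESeq2 called 4 higher and 0 lower, beside 5.23% and 5.42%. Cdkn1a, which encodes the inhibitor p21 that binds cyclin-dependent kinases and PCNA, had 2210, 1443 and 518 in KO livers, against 70, 21 and 16 in WT livers. It rose 39.7-fold (log2 5.31, limma SE 0.65, adjusted p = 0.0108). Cdkn2c, an inhibitor of Cdk4 and Cdk6, had 548, 527 and 410 in KO livers, against 172, 110 and 76 in WT livers, a rise of 4.32-fold (log2 2.11, limma SE 0.31, adjusted p = 0.0182). Ccna2, the cyclin of S phase and early mitosis, had 139, 176 and 51 in KO livers, against 27, 17 and 14 in WT livers, a rise of 5.54-fold (log2 2.47, limma SE 0.51, adjusted p = 0.0491). The call of Cdkn1a was lost without KO replicate 2 (limma adjusted p = 0.0642) or WT replicate 2 (0.0603). That of Cdkn2c was lost without KO replicate 1 (limma adjusted p = 0.0752), KO replicate 2 (0.107) or WT replicate 2 (0.0865). That of Ccna2 was lost without KO replicate 1 (limma adjusted p = 0.142), KO replicate 2 (0.230), WT replicate 1 (0.0681) or WT replicate 2 (0.159). The activator gene E2f2 had 115, 76 and 98 in KO livers, against 42, 42 and 32 in WT livers, which did not pass (log2 1.29, limma adjusted p = 0.067). Genes for the ubiquitin ligase that destroys Setd8 and Cdt1 and for H4 lysine 20 methylation were a list of 9 with 8 tested. They held 0 calls by limma, edgeR or DESeq2. At an unadjusted limma p under 0.05 there were 3 (37.5%), beside 20.0% of all genes, too few to be a result about the list. Without WT replicate 3, limma called 1 of the list higher, Setd8 itself, beside 4.74% of all genes.

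Mitosis genes, which follow replication in the cycle, are set beside the members. All 34 were tested and all had a higher fitted value in KO, with a median log2 difference of 2.04, against 0.17 over the members. When WT replicate 3 was left out, 33 of the 34 were higher, and the median was 1.65, against 0.15 over the members. Of the 34, 4 rose at a limma adjusted p under 0.05, beside 1.35% of all genes. At an unadjusted limma p under 0.05 there were 22 (64.7%), beside 20.0% of all genes. The count called was 1 without KO replicate 1, KO replicate 2, WT replicate 1 or WT replicate 2. The share of all genes called higher was then 0.251%, 0.0787%, 0.458% and 0.149%, in that order. The mitosis count was 15 without KO replicate 3 (0.972% of all genes) and 7 without WT replicate 3 (4.74%). It was 7 by edgeR (1.52% of all genes), 18 by DESeq2 (5.23%) and 11 with no filter on low values (1.02%). It was 20 with the replicate block (2.97%) and 30 with array weights (25.3%). The count and the share of all genes both depend on the setting. The difference between the lists is given as a description with no test.

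**Figure D4:**
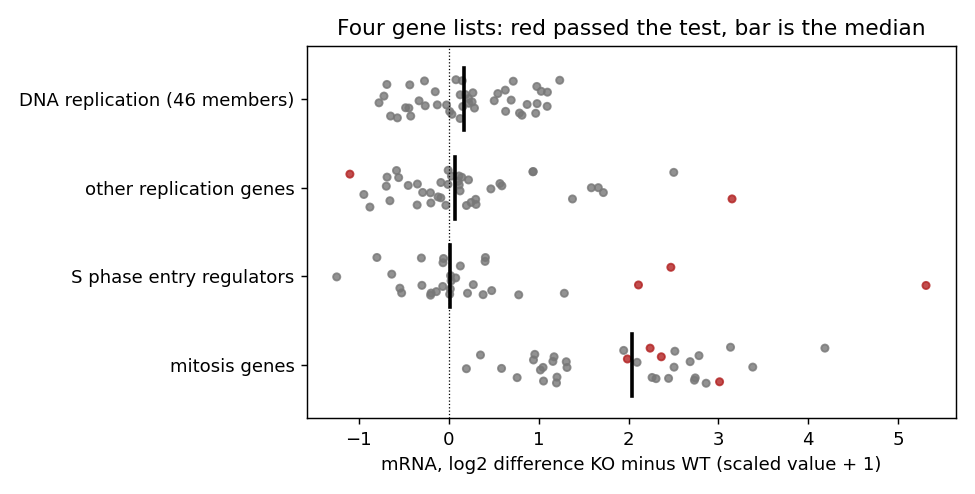
Fitted log2 difference in mRNA, KO minus WT, of every tested gene in 4 lists, with 1 point per gene, the median as a bar and genes that passed the test in red. The members centre on 0.17 with no red point, and the mitosis genes centre on 2.04.

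For nascent RNA, each gene's value is log2 of the KO RPKM plus 0.5 over the WT RPKM plus 0.5, less that of the median gene. Genes with at least 20 reads in a method were used. With 1 library per group there is no test, and intervals are exact 95% counting intervals from the reads, centred on the median gene as well. Reads below are given unscaled, and each WT library was deeper than its KO library. The added 0.5 pulls ratios of low genes towards 0, and some ratios therefore fall outside the interval given. In EU, 34 members could be used, of which 8 were at least 2-fold higher in KO and 4 at least 2-fold lower, beside 18.9% and 18.7% of all genes. In Br, 39 members could be used, with 2 higher and 2 lower, beside 5.42% and 4.6%. Median ratios were 0.13 in EU and 0.19 in Br. Of the 34 members used in both methods, 17 had the same sign in both. The share of all genes with the same sign was not computed, so this count is not a result about the members. Depth was low, with under 100 reads over both libraries for many members.

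Mcm4 was the only member at least 2-fold away from 0 with the same sign in both methods. It had 56 reads in KO and 46 in WT in EU, a ratio of 1.18 (interval 0.70 to 1.88), and 37 in KO and 11 in WT in Br, a ratio of 1.97 (interval 1.18 to 3.30). Its mRNA was also higher in KO without overlap, as in 13.2% of all tested genes. The share of all genes past 2-fold with the same sign in both methods was not computed. Dbf4 had 58 reads in KO and 21 in WT in Br, a ratio of 1.90 (interval 1.16 to 2.69), but 30 in KO and 92 in WT in EU, a ratio of -0.58. Mcm2 had 82 reads in KO and 21 in WT in EU, a ratio of 2.96 (interval 2.26 to 3.73), while in Br its 21 in KO and 20 in WT gave 0.51 (interval -0.45 to 1.46). Mcm7 was 1.57 in EU and -0.048 in Br, and Mcm6 was -0.73 in EU and 0.44 in Br. Mcm5 had too few EU reads and a Br ratio of 0.14.

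Tk1 was lower in KO in all 3 measurements. It had 126 reads in KO and 613 in WT in EU, a ratio of -1.22 (interval reaching down to -1.57 and wholly below 0), and 182 in KO and 463 in WT in Br, a ratio of -0.89 (interval -1.17 to -0.66). Both intervals lie below 0. The mRNA groups did not overlap, with KO below WT as in 12.8% of all tested genes, but the mRNA difference did not pass the test. The share of all genes lower in all 3 measurements was not computed, and Tk1 was named after its values were seen. Rrm2 and Rfc5, with the smallest p in mRNA and higher mRNA values in KO, were lower in nascent RNA. Rrm2 had 16 reads in KO and 75 in WT in EU, a ratio of -0.90 (interval -2.11 to -0.44), and 12 in KO and 31 in WT in Br, a ratio of -0.78 (interval -2.03 to 0.07). Rfc5 had a ratio of -0.42 in EU and -0.38 in Br. Mcm10 had 621 reads in KO and 1878 in WT in EU, a ratio of -0.56 (interval -0.73 to -0.46), and 299 in KO and 436 in WT in Br, a ratio of -0.10 (interval -0.33 to 0.10).

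Prim1 and Pold1 took opposite signs in the methods. Prim1 was 1.33 in EU, with 42 reads in KO and 28 in WT, and -1.15 in Br, with 6 in KO and 22 in WT. Pold1 was 0.81 in EU and -1.30 in Br. Pole, higher in KO in mRNA, had 5 reads in KO and 64 in WT in EU, a ratio of -2.22 (interval -4.35 to -1.38), and -0.18 in Br. Cdc6 had 29 reads in KO and 4 in WT in EU, a ratio of 3.70 (interval 2.35 to 5.83), and 0.68 in Br. Rpa3 had 43 reads in KO and 4 in WT in EU, a ratio of 2.31 (interval 2.97 to 6.37), and -0.14 in Br. Orc6, among the members past 2-fold lower in EU, had 0 reads in KO and 53 in WT there, and 49 in KO and 30 in WT in Br. The remaining members past 2-fold in EU were Pole2 (2.03), Pcna (1.27) and Rpa2 (-1.11), none of which passed 2-fold in Br. Rpa2 rested on 1 read in KO and 32 in WT (interval -9.35 to -1.42). Among the other mRNA-named members, Orc3 was 0.68 in EU and 0.32 in Br, Cdt1 -0.84 in EU (3 reads in KO and 19 in WT, interval -4.06 to 0.10) and 0.62 in Br, and Gins2 -0.88 in Br. Cdc45 had 1 read in KO and 29 in WT in EU (interval -9.21 to -1.27) and too low an RPKM to enter, and Fen1 had 0 in both EU libraries.

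**Figure D5:**
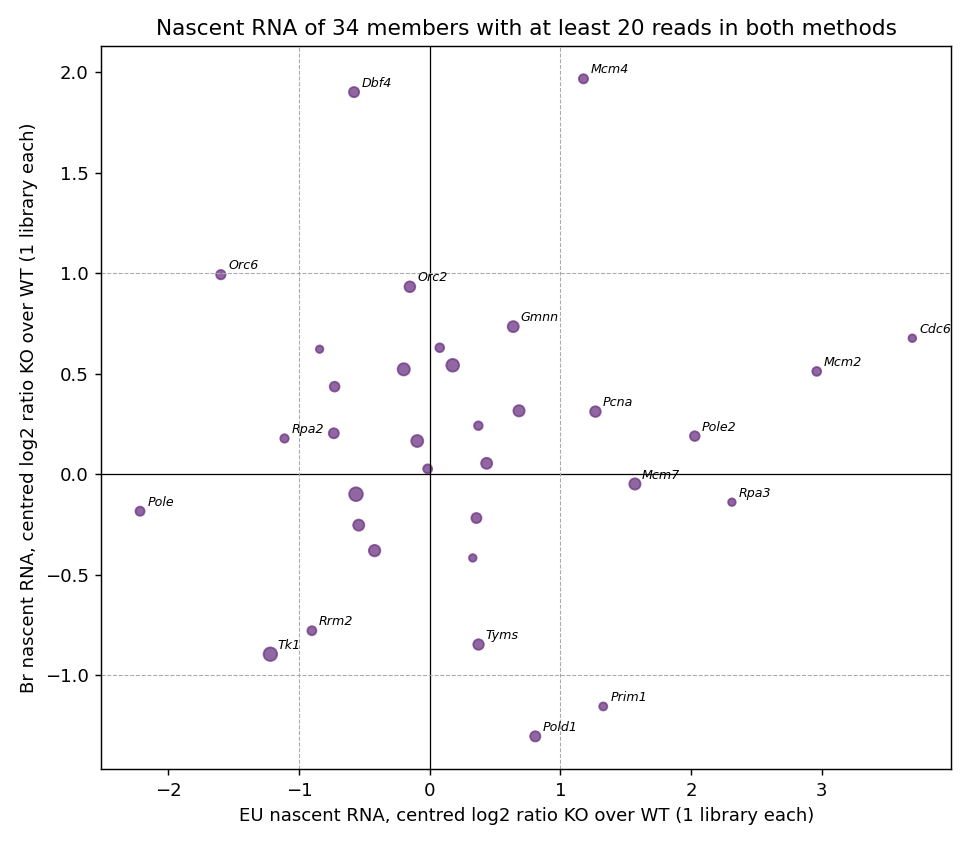
Centred log2 ratio of nascent RNA, KO over WT, in EU (horizontal) and Br (vertical) for the 34 members with at least 20 reads in both, 1 library per group; dashed lines mark 2-fold and point size grows with reads. Mcm4 is the only point in the upper right corner past both lines, and Tk1 lies in the lower left; Orc6, with 0 reads in KO in EU, is placed by the added 0.5 RPKM.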

How the data were processed

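Livers of 3 KO and 3 WT mRNA libraries and of 1 KO and 1 WT library per nascent method (EU, Br) were grouped by sample title. The deposited mRNA tables hold a score: per the file headers, counts that the authors scaled with DESeq and, as the values show, rounded to whole numbers. The deposited nascent files hold counts per gene; all Br counts are even and were divided by 2. The authors also deposited RPKM values for the nascent libraries, whose implied gene lengths depart from transcript lengths, so they served only for ratios within a gene and for floors. The submitters' processing notes name genome build mm9, TopHat2, Bowtie2, Cufflinks, DESeq, SICER and MACS2; the counter, annotation and filters are not given in the sources used here.

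limma 3.58.1 (R 4.3.3, eBayes with trend and robust) was run on log2 of the value plus 1, over 16813 genes with at least 10 in at least 3 libraries, two-sided, with Benjamini-Hochberg adjustment over all of them and calls at an adjusted p under 0.05. Fold changes are on that scale and understate those of low genes. Reads re-estimated from the rounding step (15640582 to 27108677 per library) served edgeR 4.0.16 and DESeq2 1.42.0 as alternatives. Nascent ratios were centred on the median of 12838 genes whose RPKM averaged 1 or more. Counting intervals use reads without the added 0.5 RPKM, so a ratio can lie near or outside its interval's edge; intervals cover counting error only. The fitting script was tested on simulated data.

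Symbols were matched through GENCODE M21 and RefSeq synonyms, and exon lengths and overlaps come from GENCODE M21 (GRCm38). Full values are given for the tested member with the smallest p in each of 11 roles and the 8 with the largest absolute log2 difference, for called genes of the other lists, and for Setd8 and Cdkn1a. Further genes (among them Tk1, Mcm7, Pcna, Lig1, Top2a and E2f2) were named after their values were seen. The members and lists were chosen with earlier results of these data known. Alternatives were other pseudocounts (0.5, 10), filters (none, 50), TMM scaling, array weights, a replicate block and each library left out. A marker gene too low to test is not reported here.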

Additional observations from a re-analysis of the deposited data

How the results depend on the processing

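No member was called under any mRNA alternative except array weights (18 higher, 6 lower, beside 25.3% and 24.7% of all genes) and the replicate block (1 higher, Mcm5, limma adjusted p = 0.0353; alternatives gave 0.00687 to 0.648). Array weights gave most weight to KO replicate 2 (5.26) and WT replicate 2 (5.04) and least to WT replicate 3 (0.157). Calls over all genes were 4250 higher and 4160 lower with array weights, 500 and 514 with the replicate block, 885 and 917 with DESeq2, and 775 and 927 with edgeR without WT replicate 3, an alternative chosen after seeing the data. With each library left out they were 13 to 785 higher and 15 to 821 lower, lowest without KO replicate 2 and highest without WT replicate 3. Deviations from the group means correlated at 0.41, -0.24 and 0.20 between same-numbered libraries, and at -0.39 to 0.27 between differently numbered ones. With 3 libraries per group, these values cannot decide whether a shared number marks more than a label. The median over the members stayed between 0.072 and 0.24.

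Of the tested members, 30 kept their direction in all 16 settings and 14 reversed in at least 1; the cause was not tested. Array weights reversed Orc4 (0.35), Orc5 (0.19), Cdc6 (-0.48), Pola2 (0.16), Pold1 (-0.34), Pcna (0.36) and Rfc4 (0.051), and edgeR without WT replicate 3 reversed Orc4 (0.26), Orc5 (0.0083), Cdc6 (-0.11), Pola2 (0.0028), Pold1 (-0.0063) and Pcna (0.36). With each library left out, values ranged from -0.64 to 0.14 (Orc4), -0.73 to 0.0049 (Orc5), -0.12 to 0.18 (Orc6), -0.095 to 0.38 (Cdc6), -1.12 to 0.23 (Cdc7), -0.57 to 0.050 (Pola1), -0.31 to 0.083 (Pola2), -0.015 to 0.48 (Prim2), -0.25 to 0.34 (Pold1), -0.22 to 0.35 (Pcna), -0.0014 to 0.30 (Rfc1), -0.022 to 0.29 (Rfc2) and -0.22 to 0.34 (Rpa3).

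In EU, a pseudocount of 2 RPKM gave 4 members 2-fold higher and 2 lower, beside 15.1% and 14.5% of all genes. A mean RPKM of at least 5 gave 5 higher and 2 lower of 24 members, beside 18.3% and 17.3%. A pseudocount of 0.1 RPKM gave 8 higher and 6 lower, beside 20.1% and 20.2% of all genes. Counts plus 1 in place of RPKM also gave 8 and 6, beside 20.0% and 20.8%. A mean RPKM of at least 0.2 gave 8 and 5 of 38 members, beside 18.2% and 19.6%. In Br, a pseudocount of 2 RPKM gave 1 member 2-fold lower, beside 3.41% of all genes. A mean RPKM of at least 5 also gave 1 lower, of 28 members, beside 3.99%. A pseudocount of 0.1 RPKM and counts plus 1 each gave 3 higher, beside 6.34% and 6.04%. A mean RPKM of at least 0.2 gave 3 higher of 43 members, beside 5.51%. The broader TTTNNCGC occurred in 15 of 38 members (39.5%), 5.93% of all genes and 7.16% of protein-coding genes, and the 4 octamers in 3.29% of protein-coding genes, a set chosen after seeing the data. Members with few nascent reads are limited by depth.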
